A study of Homo sapiens with 7 samples.

Results

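The regions described here are CTCF-bound sites at promoters that serve a single protein-coding gene and that carry a G-quadruplex (G4) motif. A peak was counted when its centre lay within 1 kb of a protein-coding gene start, when no opposite-strand coding gene started head-to-head within 1 kb, and when the peak overlapped a G4 motif by at least 1 bp. A G4 motif was a stretch of either strand with 4 runs of at least 3 G and loops of 1 to 7 nt between them. These promoter peaks numbered 1432 of 33094 CTCF peaks in control cells and 1311 of 32917 in cells treated with pyridostatin (PDS), a small molecule that binds and stabilizes folded G4s. The rule used position and sequence, and it favours peaks that are wide, GC-rich and close to a start, so those properties are given as descriptions. The folds and p-values did not enter it, but wide peaks ranked higher by both.

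CTCF was mapped by chromatin immunoprecipitation and sequencing (ChIP-seq) in K562, an established human erythroleukemia cell line. The 7 samples were 2 CTCF samples and 1 IgG sample of untreated K562 cells, and 2 CTCF and 2 IgG samples of K562 cells that received 10 μM PDS for 24 h. IgG is a nonspecific antibody and gives the background. Each condition had 1 deposited peak list, called jointly on both CTCF replicates over IgG, with a fold enrichment over IgG and a p-value for every peak. The lists hold no value for a single replicate and no read counts, so depth is unknown and no SD or test over replicates can be given. Intervals are therefore 95% intervals for counting error within a list, and the treatment cannot be told apart from other differences between the lists. Peak widths came in steps of 60 bp for control and 50 bp for PDS peaks. Which IgG samples entered each call is not given in the sources used here, so folds were compared between conditions only as percentiles within their list (100 is the highest fold or the smallest p-value).

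CTCF is a zinc finger protein that binds a long GC-rich consensus in duplex DNA, insulates promoters from enhancers and, together with cohesin, anchors chromatin loops. G4s are four-stranded structures that form in single strands with repeated G runs, and human promoters, above all those within CpG islands, are rich in such sequences. The question addressed by the treatment was whether stabilizing G4s alters where CTCF binds.

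The G4 motifs below belong to 8 of the 10 peaks with the highest mean fold percentile over both lists. The motifs of the other 2, at KCTD6 and TREX2, overlap an annotated exon and are not shown. The STAG2 motif lies 226 bp downstream of the gene start, and the others shown lie upstream. Positions are in hg19 (GRCh37), the strand given is the one that holds the G runs, and the G runs are in capitals.
GNPTAB, chr12:102224822-102224843, plus strand: GGGccctgaGGGctGGGctGGG
STAG2, chrX:123094281-123094296, plus strand: GGGtGGGaGGGctGGG
AXIN1, chr16:402726-402748, plus strand: GGGGGcGGGGccGGGGcgcGGGG
NCBP3, chr17:3749721-3749746, plus strand: GGGactgagcGGGGacGGGGGcGGGG
API5, chr11:43333324-43333342, minus strand: GGGGtgtGGGtGGGcGGGG
DHX34, chr19:47852337-47852360, plus strand: GGGGaggagaGGGcGGGGccGGGG
RNF207, chr1:6265153-6265170, minus strand: GGGatGGGtttGGGtGGG
RNF207, chr1:6265503-6265529, plus strand: GGGGattagcGGGGGtaGGGGGtGGGG
GCLM, chr1:94375070-94375094, plus strand: GGGGcaGGGGcGGGGcgcgaatGGG

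The SIK1 promoter peak held 7 motifs in each list, the largest number in any of these peaks and shared with PTK6 and ADRM1. The 3 motifs nearest to the start lie almost end to end and show how G runs cluster in such a promoter.
SIK1, chr21:44847046-44847064, minus strand: GGGccGGGGcGGGGccGGG
SIK1, chr21:44847066-44847090, minus strand: GGGGactacGGGGGGcGGGccGGGG
SIK1, chr21:44847092-44847115, minus strand: GGGcggcGGGGGcGGGGcaGGGGG

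The next motifs belong to peaks whose place in the list differed most between the conditions. DCTD and DDX10 ranked far higher by fold in the PDS list, and P2RX4 ranked far lower.
DCTD, chr4:183839118-183839144, plus strand: GGGGcaGGGaactGGGtccggcGGGGG
DDX10, chr11:108535659-108535685, minus strand: GGGaGGGGcagcctGGGGaaacGGGGG
P2RX4, chr12:121647810-121647832, minus strand: GGGGcccGGGGcccGGGGGaGGG

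Some promoter peaks held both the CTCF consensus, as mapped by ChIP-exo, and a G4 motif. The central 200 bp of 4 such control peaks are given on the plus strand, with the consensus and the G4 motif in capitals. They were picked after the matches were seen, to show both arrangements. At PRSS27 and CXCL12 the consensus lay beside the motif, with a gap of 64 bp in both, whereas at LTBP1 and COL27A1 the consensus and the motif overlapped, so that 1 run of capitals covers both.
PRSS27, chr16:2771241-2771440: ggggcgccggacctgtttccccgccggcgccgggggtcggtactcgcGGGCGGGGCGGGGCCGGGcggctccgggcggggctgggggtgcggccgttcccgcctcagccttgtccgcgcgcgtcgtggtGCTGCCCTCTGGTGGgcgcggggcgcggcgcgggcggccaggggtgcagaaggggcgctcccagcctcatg
CXCL12, chr10:44882121-44882320: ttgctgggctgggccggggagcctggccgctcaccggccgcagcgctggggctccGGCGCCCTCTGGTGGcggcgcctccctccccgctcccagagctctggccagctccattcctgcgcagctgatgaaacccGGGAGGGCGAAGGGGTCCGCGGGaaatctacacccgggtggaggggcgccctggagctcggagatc
LTBP1, chr2:33171441-33171640: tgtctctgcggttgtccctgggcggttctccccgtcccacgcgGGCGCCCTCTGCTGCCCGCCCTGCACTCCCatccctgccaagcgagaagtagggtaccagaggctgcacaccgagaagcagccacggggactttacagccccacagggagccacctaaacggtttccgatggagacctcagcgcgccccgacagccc
COL27A1, chr9:116917611-116917810: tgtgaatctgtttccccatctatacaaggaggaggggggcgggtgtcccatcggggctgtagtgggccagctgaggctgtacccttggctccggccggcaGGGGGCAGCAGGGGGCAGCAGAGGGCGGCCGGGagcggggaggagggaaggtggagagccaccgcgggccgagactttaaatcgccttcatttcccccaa

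CTCF peaks with a G4 motif marked the start of 1408 genes in control cells and of 1293 genes in PDS-treated cells, out of 18395 coding genes whose start had no head-to-head neighbour. Of the 1583 genes with such a peak in either list, 1118 had one in both, 290 in the control list alone and 175 in the PDS list alone. A gene was counted in 1 list alone also where the other list had a peak without a motif, or with its centre elsewhere. Among the peaks at these starts, 38.4% (1432 of 3728, 95% Wilson interval 36.9 to 40.0%) carried a motif in control cells and 36.8% (1311 of 3562, 35.2 to 38.4%) in PDS-treated cells. The share followed peak width, since a wider peak covers more sequence. It was 25.2% for control peaks of up to 300 bp, 42.2% for those over 300 and up to 600 bp and 63.2% for those over 600 bp, and in the PDS list it was 22.2%, 39.5% and 61.9%, respectively.

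Most of these peaks held a single motif, namely 901 (62.9%) in the control and 809 (61.7%) in the PDS list, and 24 and 29 peaks, respectively, held at least 5. By the rule, wider peaks were more likely to qualify, so width and the covering of the start follow in part from the selection. The peaks had a median width of 480 bp (quartiles of 300 to 720 bp) for control and 500 bp (300 to 750 bp) for PDS peaks, against 300 bp in both lists for promoter peaks without a motif. They covered the annotated gene start in 52.2% and 50.0% of cases, against 36.2% and 34.1% of the promoter peaks without a motif. Their centres, which the rule keeps within 1 kb of the start, had a median position of -25.5 bp for control peaks (quartiles of -225.5 and 255.5 bp, negative values upstream) and of -44.5 bp for PDS peaks (quartiles of -259.5 and 269.5 bp).

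The sequence at the peak centres resembled that of CpG islands, the CpG-dense stretches found at many promoters. The median GC content of the central 200 bp was 72.0% in the control and 70.5% in the PDS list, and the ratio of observed to expected CpG was 0.818 and 0.787. Promoter peaks without a motif had a GC content of 63.5% and 62.5% and a CpG ratio of 0.741 and 0.717. Peaks with a G4 motif more than 1 kb from any coding start had a GC content of 61.5% and 60.0%, but a CpG ratio of only 0.373 and 0.343. The distal G4 sites thus lay well below the promoter sites in CpG ratio, and the other promoters lay closer to them. A high GC content is in part set by the rule, since a motif needs at least 4 runs of 3 G.

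Motifs in the peaks were upstream of the gene start more often than motifs outside peaks. Of 2294 motifs in the control peaks, 52.7% (50.7 to 54.7%) were centred upstream, and so were 52.7% (50.6 to 54.8%) of 2140 motifs in the PDS peaks. With loops of up to 12 nt the shares were 50.3% (48.8 to 51.7%) and 50.75% (49.2 to 52.3%), so the excess over 50% was lost. Motifs within 1 kb of the same kind of start but outside CTCF peaks lay upstream in 39.7% of 32031 cases for the control list and in 39.8% of 32202 for the PDS list. Compared over the same distance of 1 kb, the difference was 13.1 percentage points (95% Newcombe interval 11.0 to 15.2) in the control and 13.2 points (11.0 to 15.4) in the PDS list. Within 1 kb, the motifs were not matched for closeness to the start, which the rule partly sets for motifs in peaks. A larger share of the motifs in peaks also lay in the 200 bp just downstream of the start, and a smaller share further downstream. How far the upstream difference follows from closeness to the start was not tested. The peaks themselves leaned upstream: their centres lay there in 53.3% (control) and 54.7% (PDS) of cases with a motif and in 53.9% and 54.4% without one. For the strand of the G runs no such difference was seen. The G runs lay on the coding strand in 54.3% of motifs in control peaks and in 53.2% in PDS peaks, and the difference from motifs outside peaks was -0.04 points (-2.19 to 2.09) and -0.91 points (-3.13 to 1.31). In both kinds of motif, the coding strand was favoured downstream of the start, by 59.5% of motifs in control peaks and 58.3% in PDS peaks, and not upstream, where the shares were 49.6% and 48.7%. The motifs had a median length of 24 nt (quartiles 21 and 27 nt), and 21.5% of those in control peaks and 21.3% in PDS peaks had no loop longer than 3 nt.

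**Figure D1:**
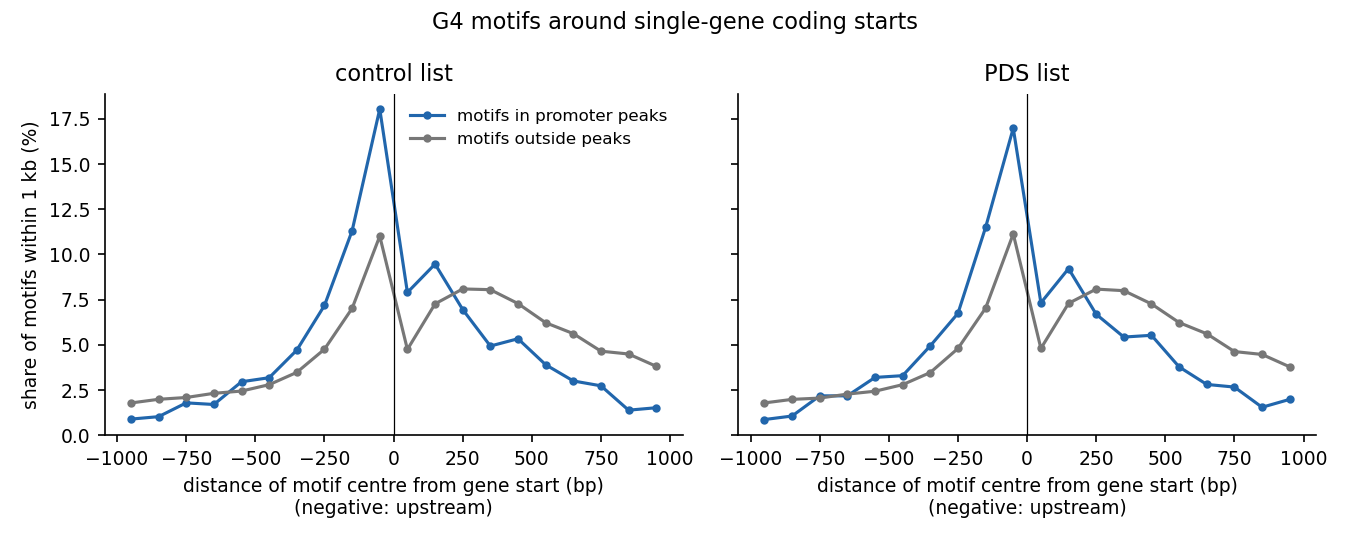
Share of G4 motifs in bins of 100 bp along the distance from the gene start (bp, negative upstream), for motifs in the promoter peaks (blue) and for motifs outside CTCF peaks (grey), with the control list on the left and the PDS list on the right. Blue lies above grey close to the start on both sides and below it further downstream. Of the motifs drawn in blue, 52.8% (control) and 53.0% (PDS) are upstream, against 39.7% and 39.8% of those in grey. The closeness to the start is partly set by the rule, and the shares are not matched for it.

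The CTCF consensus was rare in these peaks. It was found in the central 200 bp of 75 control peaks (5.24%, 4.20 to 6.52%) and of 66 PDS peaks (5.03%, 3.98 to 6.36%), where 13.5% of all control peaks and 9.76% of all PDS peaks had it. Over all widths, promoter peaks without a G4 motif had a similar share, with 5.40% in the control and 4.84% in the PDS list, and the difference was -0.16 points (-1.61 to 1.37) and 0.19 points (-1.24 to 1.74). At matched width, the share was lower with a G4 motif than without in every class, though the intervals overlapped. For control peaks it was 2.52% against 3.41% up to 300 bp, 5.73% against 7.70% up to 600 bp and 7.25% against 8.68% over 600 bp. For PDS peaks the same classes gave 2.54% against 3.31%, 4.98% against 5.94% and 6.87% against 8.55%. Distal peaks with a G4 motif had the consensus in 14.7% and 12.1% of cases, and the promoter peaks differed from them by -9.43 points (-11.0 to -7.75) and -7.08 points (-8.54 to -5.45). Windows of 200 bp at all 18395 single-gene starts, which lie at the start and not at a peak centre, held it in 0.794% of cases. Over the whole peak, the consensus was present in 131 control peaks (9.15%) and 129 PDS peaks (9.84%), and it overlapped a G4 motif in 14 and 13 of them. The median gap between the consensus and the nearest motif was 87 bp in both lists. A missing match says only that these letters were not in the window.

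Short promoter motifs were searched on both strands of the same central 200 bp. These windows lie at the peak centre, which is often away from the start, whereas the windows at all starts lie at the start itself. The windows were not matched for position or GC content, so the shares at all starts are given for orientation only. The GC box (GGGCGG), which is bound by SP and KLF factors, was present in 64.0% (61.5 to 66.4%) of the control and 60.0% (57.3 to 62.6%) of the PDS promoter peaks with a G4 motif. Without a G4 motif it was present in 39.9% and 37%, and at distal sites with a G4 motif in 31.7% and 26.6%, against 45.2% of windows at all single-gene starts. Divergent promoter peaks with a G4 motif had it in 63.5% of 85 and 69.6% of 69 cases, and the single-gene peaks differed from them by 0.44 points (-9.34 to 11.3) and -9.61 points (-19.6 to 2.33). The GC box contains a run of 3 G and can be part of a G4 motif, so the searches share letters. The CCAAT box (CCAAT), the site of the NF-Y factor, was less frequent than at promoter peaks without a motif, with 11.7% against 17.4% in the control list (difference -5.76 points, -8.00 to -3.45). In the PDS list it was 11.0% against 17.7% (-6.74 points, -9.01 to -4.38), and 25.3% of windows at all starts had it. A TATA box (TATAAA) was found in 2.17% and 2.06% of the peaks, against 7.49% at all starts. Promoter peaks without a motif had it in 3.01% and 2.89% of cases, and the difference was -0.84 points (-1.85 to 0.25) and -0.83 points (-1.83 to 0.28). The core of ETS factor sites (CGGAAG) was found in 15.6% and 12.7% of the peaks and in 16.7% of windows at all starts, and the difference from promoter peaks without a motif was 0.27 points (-2.09 to 2.70) in the control and -2.41 points (-4.70 to -0.03) in the PDS list.

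Looked at from the genes, a G4 motif near the start went together with a CTCF peak over all genes, but within no class of GC content did the starts with a motif exceed those without one beyond the interval. Of 10134 single-gene starts with a motif within 500 bp, 2477 (24.4%, 23.6 to 25.3%) had a CTCF peak centre within 1 kb in control cells and 2331 (23%, 22.2 to 23.8%) in PDS-treated cells. Of 8261 starts without a motif, 1225 (14.8%, 14.1 to 15.6%) and 1141 (13.8%, 13.1 to 14.6%) had one. The difference was 9.61 points (8.48 to 10.7) in control cells and 9.19 points (8.08 to 10.3) in PDS-treated cells. The starts were then divided into 5 equal classes by the GC content within 500 bp. The share of starts with a motif that had a peak went up from 6.94% in the lowest class to 32.1% in the highest in control cells, and from 6.62% to 29.6% in PDS-treated cells. Starts without a motif followed the same course, from 5.53% to 33.0% and from 5.15% to 31.2%. Within the classes, the difference between starts with and without a motif ran from -4.72 to 1.41 points in control cells and from -4.53 to 1.48 points in PDS-treated cells. In the middle class, starts with a motif had a peak less often, by -4.72 points (-7.46 to -2.02) and -4.53 points (-7.25 to -1.86). In the next higher class the difference was -3.73 points (-7.28 to -0.30) in control cells and -1.29 points (-4.72 to 1.98) in PDS-treated cells. The intervals of the other 3 classes included 0 in both lists. Weighted over the classes, the difference was -2.38 points and -1.73 points, so its sign was opposite to that of the pooled value.

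**Figure D2:**
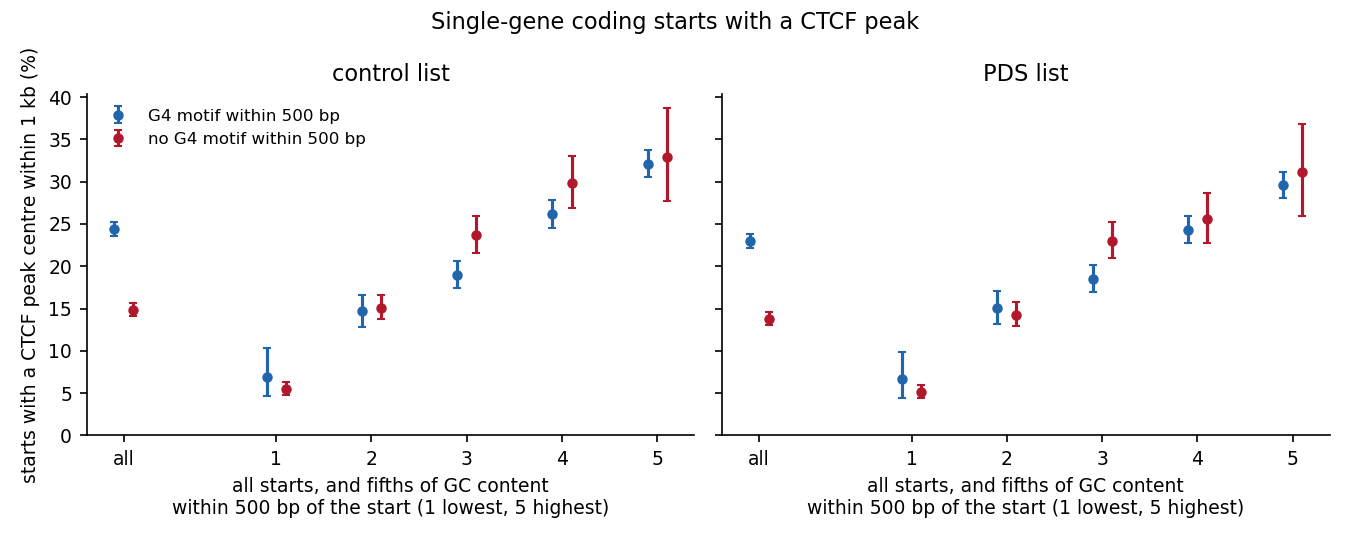
Share of single-gene coding starts with a CTCF peak centre within 1 kb (%), for all starts and for 5 classes of GC content around the start, with a G4 motif within 500 bp (blue) or without one (red), in the control list (left) and the PDS list (right); bars are 95% Wilson intervals. The pooled shares of 24.4% and 14.8% in control cells lie apart, whereas within a GC class the blue points lie near the red ones or below them.

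Most of these peaks were found in both conditions. Of the 1432 control peaks, 1281 (89.5%, 87.8 to 90.9%) overlapped a PDS peak, and of the 1311 PDS peaks, 1248 (95.2%, 93.9 to 96.2%) overlapped a control peak. The other 151 (10.5%) and 63 (4.81%) had no counterpart, where 22.0% of all control peaks and 21.4% of all PDS peaks had none. Promoter peaks without a motif had a counterpart in 80.0% and 83.8% of cases, which was lower by 9.49 points (7.17 to 11.7) and 11.4 points (9.45 to 13.3). Distal peaks with a motif had one in 93.95% and 91.8% of cases, and the promoter peaks differed from them by -4.50 points (-6.34 to -2.81) in control and by 3.40 points (1.88 to 4.75) in PDS-treated cells. The contrast was smaller at matched width in the control list. Among peaks of up to 300 bp the share was 70.4% (66.0 to 74.5%) with a motif and 66.3% (63.7 to 68.8%) without, and among those over 300 and up to 600 bp it was 96.1% and 96.8%. In the PDS list the narrow peaks had a counterpart in 82.8% (78.5 to 86.4%) of cases with a motif and in 71.1% (68.5 to 73.6%) without. Over 600 bp, all 495 PDS peaks and 99.8% of the control peaks with a motif had a counterpart. The order of the lists was not stable. When each list was limited to its 50% most significant peaks, the share was 94.2% for control peaks and 88.4% for PDS peaks, so the list with fewer counterparts changed.

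**Figure D3:**
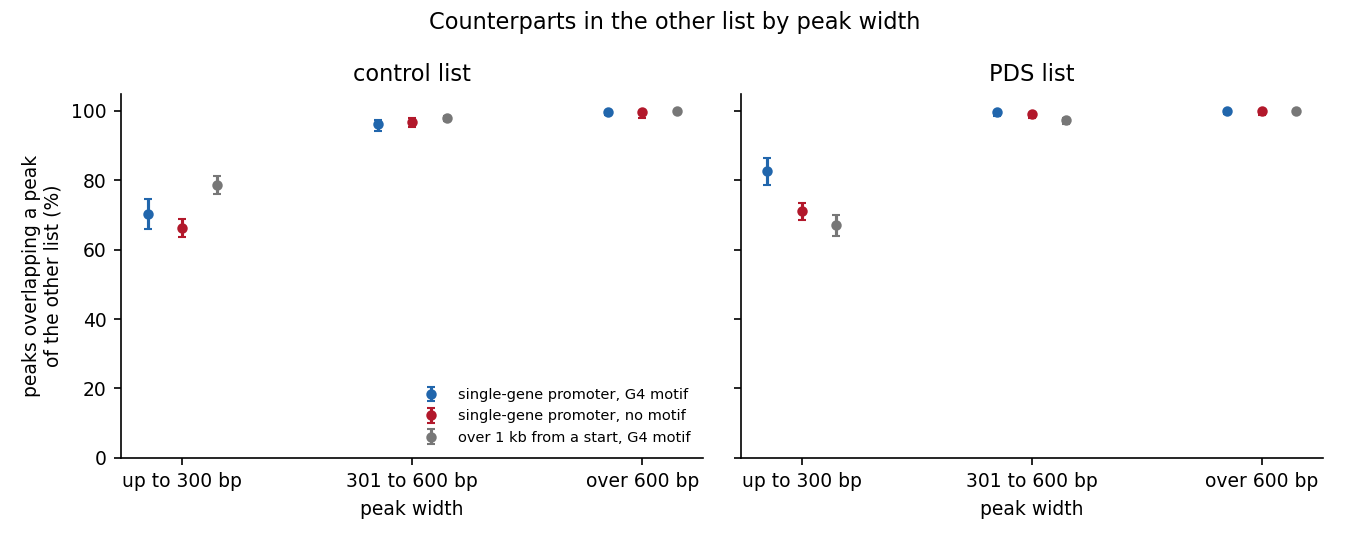
Share of peaks that overlap a peak of the other list (%) by class of peak width, for single-gene promoter peaks with a G4 motif (blue), those without one (red) and distal peaks with a motif (grey), in the control list (left) and the PDS list (right); bars are 95% Wilson intervals. Narrow peaks of up to 300 bp have the fewest counterparts in every set, with 70.4% of the control and 82.8% of the PDS promoter peaks with a motif, and over 600 bp nearly every peak has one.

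The counterpart was itself a promoter peak with a G4 motif in 1129 cases (78.8%) for the control list and 1131 (86.3%) for the PDS list. In 136 (9.50%) and 99 (7.55%) cases it was a peak at a single-gene start that missed the motif, so the motif lay in the stretch covered by 1 of the 2 peaks. Of the peaks without a counterpart, 135 of 151 in the control list (89.4%) and 61 of 63 in the PDS list (96.8%) belonged to the 50% of peaks with the larger p-values. The same held for 88.5% and 98.9% of all peaks without a counterpart. A peak of the other list lay within 1 kb in 36 (23.8%) and 22 (34.9%) of these cases. The absence of a call is not evidence that CTCF was absent. Across genes, starts with a G4 motif and a peak in either list numbered 2677, of which 79.6% had a peak in both lists, 12.9% in the control list alone and 7.47% in the PDS list alone. The 1328 starts without a motif gave 78.2%, 14.1% and 7.76%, so the split between the lists was similar with and without a motif.

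The control-list peaks without a counterpart that had the smallest p-values were at TRMT2A, ICAM5, ARMC7, CCDC116 and PDXK. The TRMT2A peak (chr22:20104321-20104800), at the gene of a tRNA methyltransferase, had a fold of 9.13 (6.4 in percentile) and a p-value of 4.57e-20 in the deposited list (94.2 in percentile). At ICAM5, which encodes an adhesion molecule of neurons, the fold was 24.9 (44.5 in percentile). PDXK, which makes the active form of vitamin B6, had a peak with 2 motifs and a fold of 9.73. Except at TRMT2A, the p-value percentiles of these peaks were between 66.0 and 68.9. In the PDS list the corresponding peaks were at LRP5, NPTXR, RCC2, MFHAS1 and DGLUCY. All were at most 300 bp wide, and their p-value percentiles were between 46.3 and 58.3. The RCC2 peak (chr1:17766201-17766400), at the gene of a chromosome condensation regulator, combined the highest fold of these promoter peaks in PDS-treated cells, 137.6, with a middling p-value percentile of 49.1. LRP5, a Wnt co-receptor, had a fold of 26.2 (84.8 in percentile) with 2 motifs in 250 bp.

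Where exactly 1 control peak overlapped exactly 1 PDS peak, ranks could be compared site by site. There were 1080 such pairs in which both peaks were promoter peaks with a G4 motif, of 24633 pairs in all, and 1075 of the 1080 were assigned to the same gene. By fold over IgG, these sites ranked lower in PDS-treated cells. The median shift was -20.8 percentile points (95% interval -22.3 to -18.0), and 845 sites ranked lower and 235 higher (21.8%), where 51.4% of all pairs ranked higher. By p-value the same sites ranked higher, with a median shift of 4.95 points (4.10 to 6.40) and 746 sites higher (69.1%), where 56.3% of all pairs ranked higher. At 629 of the 1075 sites with the same gene the peak ranked lower by fold and higher by p-value (58.5%), and so did 33.6% of all pairs. No direction of change in CTCF binding follows from ranks that move apart in this way. Folds in the 2 lists correlated over the pairs with Spearman's rho of 0.51, given as a description, since neighbouring peaks and shared libraries make the points dependent.

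**Figure D4:**
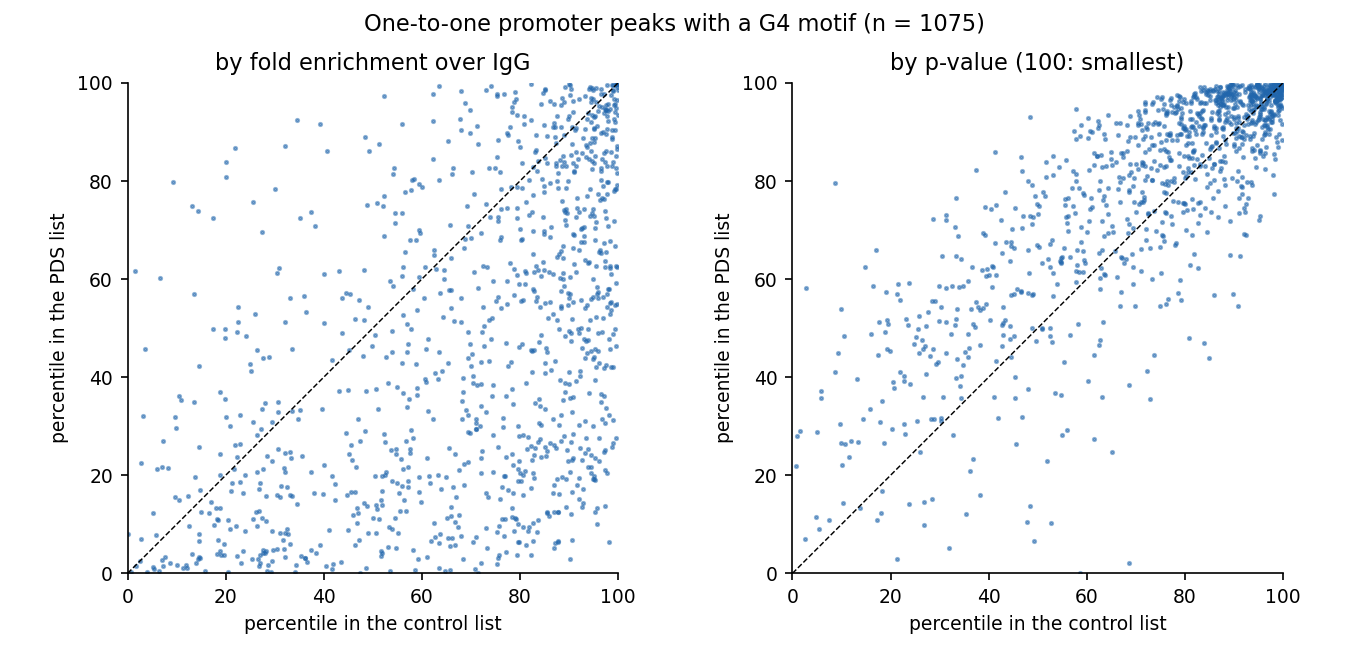
Percentile in the PDS list against percentile in the control list for the 1075 one-to-one promoter peaks with a G4 motif assigned to the same gene in both lists, by fold over IgG (left) and by p-value (right); the dashed line marks equal percentiles. By fold most points lie below the line (841 of 1075 pairs), and by p-value most lie above it (741 of 1075).

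A shift in the same direction by fold was also seen at GC-rich sites without a motif or away from promoters, and it differed with GC content. Over all pairs the median shift was 0.69 points by fold and 2.30 by p-value. It was -6.71 points by fold at single-gene promoters without a motif (1657 pairs), -20.7 at divergent promoters with a motif (58 pairs) and -4.33 at distal sites with a motif (3099 pairs). Pairs were then divided by the GC content of the central 200 bp of the control peak. At the promoter sites with a motif the shift by fold was -5.65 points (-8.25 to -2.77) with a GC content under 65%, -22.2 (-24.9 to -19.4) from 65 to 75% and -29.2 (-33.7 to -24.7) at 75% or more. Promoter sites without a motif shifted by -0.90 (-1.82 to -0.01), -17.6 (-21.5 to -14.0) and -24.8 (-30.3 to -18.6), and distal sites with a motif by 1.89 (1.02 to 3.35), -16.6 (-19.0 to -13.5) and -30.5 (-35.0 to -25.9). Above 65% GC, the intervals of the promoter sites with and without a motif overlapped, and below it they did not. By p-value, the promoter sites with a motif shifted by 3.38, 4.13 and 7.72 points over the same GC classes, and those without a motif by 1.58, 5.43 and 7.64 points. The number of IgG samples and the step of peak widths differ between the conditions together with the treatment, so their parts in the shift cannot be told apart.

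**Figure D5:**
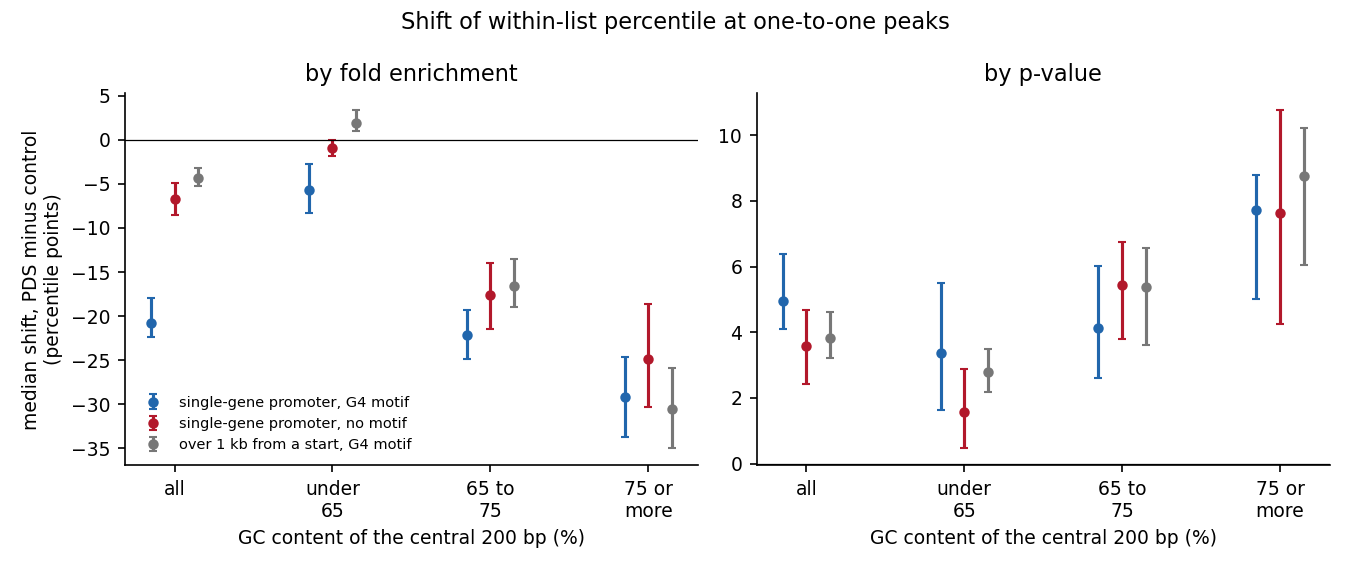
Median shift of the within-list percentile from control to PDS (percentile points), by fold over IgG (left) and by p-value (right), for all one-to-one peaks of a set and for 3 classes of GC content of the central 200 bp; bars are 95% intervals of the median. By fold the shift of the promoter peaks with a G4 motif (blue) runs from -5.65 points under 65% GC to -29.2 points at 75% or more, and both other sets take a similar course, whereas by p-value all medians are above 0.

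The sites with the highest folds in both conditions were at genes of varied function. KCTD6, an adaptor of cullin ubiquitin ligases, had a fold of 130.8 in control and 73.7 in PDS-treated cells, which was the 99.8 and 99.9 percentile. The GNPTAB peak, whose motif is given above, had folds of 147.5 and 63.2 (99.9 and 99.8 in percentile), and the gene encodes the enzyme that begins the mannose-6-phosphate tag of lysosomal proteins. STAG2, a subunit of cohesin, the ring complex that CTCF halts on DNA, had folds of 113.5 and 105.9 (99.6 and 99.99 in percentile). Its rank by p-value was 98.3 in the control and 84.6 in the PDS list. AXIN1, a scaffold of the complex that degrades beta-catenin, had fold percentiles of 99.7 in both lists. At NCBP3, a cap-binding protein of mRNA, the fold percentile was 99.6 in both, and the CTCF consensus was present in the central window in both lists. API5, TREX2, DHX34, RNF207 and GCLM completed the 10 strongest, with fold percentiles from 98.7 to 99.9 in the control and from 98.5 to 99.7 in the PDS list. GCLM, a subunit of the enzyme that starts glutathione synthesis, stood out by p-value as well, with 97.2 and 98.7 in percentile. A fold percentile above 90 was reached by 297 of the 1075 pairs (27.6%) in control cells, by 119 (11.1%) in PDS-treated cells and by 72 (6.70%) in both. Of all 24633 one-to-one pairs, 12.9%, 12.8% and 5.05% reached it. These shares were not matched for peak width, which the rule favours. In the control list, the median fold percentile of the promoter peaks with a motif was 45.1 up to 300 bp and 80.4 over 600 bp.

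The promoters with the most motifs did not share a rank. SIK1, a salt-inducible kinase, had 7 motifs in each peak, and its fold percentile was 75.3 in control and 97.7 in PDS-treated cells. PTK6, a tyrosine kinase, had 7 motifs in each peak as well, but its fold percentile was 97.3 in control and 63.7 in PDS-treated cells. ADRM1, a ubiquitin receptor of the proteasome, had 7 motifs in each and went from 86.2 to 55.4. DVL1, a transducer of Wnt signals, had 6 motifs in the control peak and 7 in the PDS peak, with fold percentiles of 83.3 and 89.3. PRKCQ, a protein kinase C of T cells, had 6 in each, with 52.3 and 28.5. In all 5 the p-value percentile was above 84 in both lists.

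The sites that moved up most by fold were DCTD, POU2AF1, DDX10, VPS26A and THRB, by 60.8 to 70.6 percentile points. DCTD, an enzyme of thymidine nucleotide synthesis, had a fold of 10.9 in control cells (9.2 in percentile) and of 24.0 in PDS-treated cells (79.8). DDX10, an RNA helicase, had 16.2 (20.1) and 25.7 (83.8). By p-value, 3 of the 5 moved the other way: VPS26A, a subunit of the retromer, by -26.6 points, THRB, the thyroid hormone receptor beta, by -20.9 and POU2AF1, a coactivator of B cells, by -12.1. All 5 had a GC content under 63% in the control window, with 54.0% at POU2AF1 and 62.5% at DCTD. The sites that moved down most by fold were GAMT, SPOPL, TGFB3, MRAS and P2RX4, by -91.7 to -83.7 points, and their GC content was between 68.5% and 81.0%. GAMT, an enzyme of creatine synthesis, had a fold of 81.6 in control cells (98.1 in percentile) and of 7.88 in PDS-treated cells (6.4), while its p-value percentile was 74.0 and 92.0. P2RX4, a channel gated by ATP, had 75.8 (97.4) and 9.91 (13.7), with p-value percentiles of 83.3 and 98.4. TGFB3, a growth factor of the TGF-beta family, and MRAS, a small GTPase, also ranked higher by p-value in the PDS list, by 12 and 24.4 points, whereas SPOPL ranked lower, by -14.8 points. These 10 genes were chosen by the size of their shift, so the shift itself is a description.

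The lists of genes that follow were chosen with earlier results of these data known. They are set beside the 7.65% of all single-gene starts that had a promoter peak with a G4 motif in control cells and the 7.03% in PDS-treated cells. Of 25 oncogenes and related genes with known promoter G4s, 5 (20.0%) had one in control cells and 6 (24.0%) in PDS-treated cells. This list was chosen for promoter G4s, and a peak was counted only with a motif. A motif lay within 500 bp of the start at 22 of the 25, against 10134 of all 18395 single-gene starts. These shares are therefore not a like comparison with those of all starts. VEGFA, an angiogenic growth factor, had a peak of 1020 bp with 1 motif and the CTCF consensus in control cells (fold 49.0, 87.5 in percentile) and one of 1000 bp in PDS-treated cells (24.1, 80.0). The MYC peak (chr8:128748301-128748780 in control cells), centred 860.5 bp after the annotated start of this oncogene, had a fold of 49.0 (87.6) in control and of 32.4 (93.3) in PDS-treated cells. Whether the motifs in these peaks are the known promoter G4s was not tested. HSP90AB1, a chaperone, and CCND1, a cyclin, ranked lower by fold in the PDS list, at 10.2 against 82.7 and at 5.2 against 54.8. By p-value both ranked higher there, at 88.7 against 71.4 and at 45.8 against 19.2. WNT1 was found in both lists. BCL2, an inhibitor of apoptosis, was counted in the PDS list alone, because the overlapping control peak held no motif.

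Among 19 genes of CTCF, cohesin and their partners, 5 (26.3%) had such a peak in both lists, namely CTCF, CTCFL, PDS5A, PDS5B and STAG2. The CTCF gene itself carried a peak of 1320 bp with 3 motifs in control cells and of 1300 bp with 2 motifs in PDS-treated cells. Its fold percentile was 82.3 and 17.4, while its p-value percentile was 90 and 98.2. PDS5A, a regulator of cohesin release (not to be confused with the ligand PDS), had broad peaks of 1980 bp and 2100 bp. Among the genes of DNA methylation, the methyltransferase DNMT3B had a peak in both lists, with fold percentiles of 67.7 and 21.0 and 2 motifs in the control and 3 in the PDS peak. Of 9 genes of HMG proteins, a class of chromatin proteins, HMGN1 had a peak in both lists (3.9 and 0.35 in fold percentile, 38.6 and 61.95 in p-value percentile), and HMGA1 had one in control cells alone. None of 10 helicases that unwind G4s had one, a number too small to set against these shares. Of the 10, 5 had a G4 motif within 500 bp of the start and 3 had a CTCF promoter peak in control cells.

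Of 23 erythroid and blood transcription factors, 3 (13.0%) had a peak with a motif in control cells and 2 (8.70%) in PDS-treated cells. GATA2, a regulator of blood stem cells, and MAFG, a partner of erythroid NF-E2, had one in both, at fold percentiles of 19.0 and 3.7 and of 14.6 and 8.1. LDB1, a cofactor of GATA1 complexes, had a narrow control peak without a counterpart. Of 35 zinc finger genes whose proteins bind GC boxes, 5 (14.3%) and 3 (8.57%) had one. PATZ1 reached a fold percentile of 97.6 in control and 33.8 in PDS-treated cells, while its p-value percentile was 77.0 and 89.5. SP7 had fold percentiles of 77.3 and 74.5. KLF14 had one in both lists too, and KLF2 and WT1 had one in control cells alone. Ribosomal protein genes had one in 5 of 67 cases (7.46%) in control cells and in 6 (8.96%) in PDS-treated cells. RPS26 (98.1 and 95.7 by fold percentile) and RPL10A (94.7 and 93.5) ranked high in both lists, and RPL38 had 93.1 and 67.5. At RPL22 a single control peak of 1380 bp lay over PDS peaks of 350 bp and 800 bp. Of 39 HOX genes, the patterning genes of the body axis, 2 (5.13%) and 3 (7.69%) had one. HOXC10 had a fold of 132.2 (99.8 in percentile) in control and of 17.6 (54.8) in PDS-treated cells, while its p-value percentile went from 87.3 to 99.1. HOXA6 had one in both lists. HOXB5 was counted in the PDS list alone, because the overlapping control peak held no motif. Among 12 genes named by the study, 5 had one in both lists. VPS4A was the strongest of them by fold in control cells (99.6 in percentile, against 78.4 in PDS-treated cells). Its p-value percentile was 86.6 and 93.9. The study took a site in VPS4A without CTCF or G4 as its negative control, and whether the promoter peak covers that site was not tested.

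The peaks were spread over all chromosomes examined. Per 100 single-gene starts, control cells had between 1.95 peaks on the X chromosome and 10.4 on chromosome 9, and PDS-treated cells between 1.95 on X and 9.17 on chromosome 17. Near the limit of 1 kb, the 47 control peaks centred 900 to 1000 bp from a start had a counterpart in 91.5% of cases and a median fold percentile of 71.1, and the 41 peaks with a motif at 1000 to 1100 bp had 87.8% and 70.0. The values for PDS peaks were 96.8% and 41.2 for 63 peaks inside the limit, and 95% and 59.6 for 40 peaks outside it. A second single-gene start within 1 kb was found for 79 control and 69 PDS peaks, which were assigned to the nearest one.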

How the data were processed

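K562 cells were untreated or treated with PDS, and CTCF and IgG ChIP-seq gave 7 samples. The authors mapped reads to hg19 with Bowtie2 2.2.3, removed duplicates and reads with a mapping quality under 30 (samtools), and called peaks with PePr on both replicates of a condition. The sample labels and the methods differ on the read layout and instrument. The deposited lists give each peak a score (not used), a fold enrichment over IgG and a p-value; the largest p-value is 1.00e-05 in both. This differs from the cutoff that the methods name for PePr. The methods name a single window size, whereas the steps of peak width and the narrowest peaks differed between the lists. The narrowest peak was 120 bp wide in the control and 100 bp in the PDS list. The authors' adjusted p-values were not used, and 0 columns of other samples were present.

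Gene starts were the protein-coding gene rows of GENCODE 44 lifted to GRCh37, whose chromosome lengths match hg19, on chromosomes 1 to 22 and X (25 control and 24 PDS peaks lay elsewhere). G4 motifs (379594) were found without overlap on each strand, ending loops at the earliest run. Peaks were shared when they overlapped by 1 bp. Shares have Wilson intervals, differences of shares Newcombe intervals and medians binomial order-statistic intervals, all of 95% and for counting error only. The sequence search and overlaps were tested on simulated data. Members and gene lists were chosen with earlier results of these data known. Named genes were the 10 pairs with the highest mean fold percentile, the 5 with the most motifs, the 5 with the largest shift by fold in each direction, the 5 peaks of each list without a counterpart that had the smallest p-values, and list members; 1 result of the DNA methylation list is not reported here, while its other results are. The short promoter motifs, the GC classes of pairs and the values near the distance limit were added after the data were seen. Software versions were scipy 1.17.1, numpy 2.4.6, matplotlib 3.10.9, pandas 2.3.3, samtools 1.23.1, pyfaidx 0.9.0.4 and Python 3.11.15.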

Additional observations from a re-analysis of the deposited data

How the results depend on the processing

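The 7 alternatives gave 76 values. Of these, 47 lay inside the interval of the value reported above (for numbers of peaks, within 1.5 times of it) and 29 moved. A change of sign was found for 0 values, but only the differences between starts and the shifts could have one, since counts and shares cannot be negative. The comparisons within GC classes were not repeated under the alternatives. Where no construction is named, the cause was not tested. With centres within 500 bp of the start, 4.04% of control peaks had the consensus, 56.3% (control) and 55.8% (PDS) of motifs lay upstream, and starts with a motif exceeded those without by 7.13 and 6.25 points. With the starts of all protein-coding transcripts, 58.9% and 58.3% of motifs lay upstream and the starts differed by 11.8 and 11.0 points. With loops of up to 12 nt, 50.3% of motifs in control and 50.75% in PDS peaks lay upstream, with intervals that include 50%, the starts differed by 12.9 and 12.1 points, and the shift by fold was -17.9 points. With motifs required in the central 200 bp, by construction fewer peaks qualified (920 and 838), 83.3% and 91.2% had a counterpart and 4.13% of control peaks the consensus; with a motif within 200 bp of the start, the starts differed by 7.31 and 6.74 points. Limited to the 50% most significant peaks, 94.2% and 88.4% had a counterpart, the starts differed by 6.69 and 7.33 points and the shift by p-value was 3.43 points. Counterparts were found for 80.7% and 86.8% where both peaks had to overlap by 50%, and for 92.0% and 96.9% where gaps up to 1 kb were allowed, as the looser or stricter definition implies.

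No paired analysis was possible because the lists hold no values of single replicates, and leaving out a replicate gave no value either. Unknown depth limits every statement on peaks found in 1 list.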
